A study of Mus musculus with 6 samples.

Results

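Cyclin-dependent kinase (CDK) inhibitors, D cyclins and CDK4 set the pace of the G1 phase, and their messenger RNAs were measured in a mouse lung tumour line that lacks the transcription factor MAX, with and without MAX put back. The genes were chosen by symbol: Cdkn1a, Cdkn1b, Cdkn1c, Cdkn2a, Cdkn2b, Cdkn2c, Cdkn2d, Ccnd1, Ccnd3 and Cdk4, that is 10 of the 24391 annotated genes. All 10 had enough counts to be tested. The line, mRPMaxKO, came from an RPMax-/- lung tumour, a genotype that lacks Rb1, p53 and Max and models small cell lung cancer, on a mixed 129/SvJ and C57BL/6 background. Its cells, below passage 20, were a polyclonal population with a doxycycline-inducible lentiviral vector, selected with puromycin. There are 3 libraries labelled MAX restored and 3 labelled control. A single treatment text, worded alike for both groups, gives doxycycline for 4 days, which leaves unstated whether control cells received the drug or carried an empty vector. Nor is it stated that replicate libraries are separate cultures. P-values here reflect the variation among these 6 libraries alone, and that variation may be technical.

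As background, D cyclins bind CDK4 or its relative CDK6, and the active kinase phosphorylates the retinoblastoma protein RB, which otherwise holds E2F factors in check. INK4 proteins, made by Cdkn2a, Cdkn2b, Cdkn2c and Cdkn2d, bind CDK4 and CDK6 and keep the D cyclins off. CIP/KIP proteins, made by Cdkn1a, Cdkn1b and Cdkn1c, block CDK2 complexes and also bind cyclin D complexes. Tumour cells without RB are known for high p16 (from Cdkn2a) and low cyclin D1. MYC with MAX is known to activate Cdk4 through E-boxes and to repress Cdkn1a and Cdkn2b.

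Each MAX restored library held between 10253303 and 11925909 counts and each control library between 10046899 and 10425210. Max itself was at 1327 ± 18.7 CPM (a library-size-scaled count, with TMM factors) in the MAX restored libraries and at 63.5 ± 2.47 CPM in the controls (SD, n = 3 each). A sum over all exons cannot show a deleted part of a gene. The Max counts of the controls therefore do not check the deletion of Max. Nor do the counts of Rb1 (290.2 ± 1.74 CPM in MAX restored and 322 ± 18.9 CPM in control libraries) check its deletion. The same holds for Trp53, at 11.4 ± 1.15 CPM with MAX restored and 12.5 ± 1.29 CPM in the controls. All 10 neuroendocrine markers listed were detected, together at 9287 to 9598 CPM with MAX restored and 9273 to 9504 CPM in the controls. Of these, 5 were higher and 2 lower; Chgb, a chromogranin gene, averaged 426 CPM with MAX restored and 215 CPM in the controls. The 13 markers of fibroblasts, immune cells and endothelium summed to 4.87 to 7.33 CPM with MAX restored and 3.57 to 4.70 CPM in the controls, with Cd3e and Cdh5 at 0 counts throughout, which allows up to 0.0900 CPM with MAX restored and 0.0978 CPM in the controls; 3 were tested and Pdgfrb was higher. Control 1 stood apart from its group, with Rn45s, a ribosomal RNA precursor, at 10013 CPM against 1083 to 1869 CPM in the other libraries. Over genes, Rn45s included, the chi-square per degree of freedom of control 1 reached 8.91 with control 2 and 10.2 with control 3. The other pairs within a group lay between 1.24 and 1.505. Rn45s has a large part in the values of control 1. They were not computed without it, so they do not tell how many genes differ. Leaving out control 1 gave 8252 genes past the test used below, against 7598 without control 2 and 7674 without control 3. For the 10 genes, the log2 ratio of control 1 to the mean of controls 2 and 3 lay between -0.054 (Cdkn1c) and 0.21 (Cdkn2b).

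The inhibitor genes did not move as a block, and the changes were small except in Cdkn1c. Of the 10 genes, 4 rose with MAX restored (Cdkn1b, Cdkn1c, Cdkn2b and Cdkn2d), 3 fell (Cdkn1a, Cdkn2a and Cdk4), and 3 did not pass the test (Cdkn2c, Ccnd1 and Ccnd3). The test was edgeR's quasi-likelihood test with Benjamini-Hochberg adjustment over 12664 genes and a threshold of 0.05. Among all genes tested 63.5% passed it, 31.2% higher and 32.3% lower, so 7 of 10 is close to the background. Values of the 2 groups were fully separated in 9 of the 10, against 67.1% of all genes. A call with an absolute log2 fold change of at least 1 was made for 1 of the 10, Cdkn1c, against 8.53% of all genes. The median log2 fold change of the 10 was 0.10, against -0.0036 over all genes tested. These are levels in bulk RNA, in which fewer cells with a transcript and less of it per cell cannot be told apart, and each is a share of the library.

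**Figure D1:**
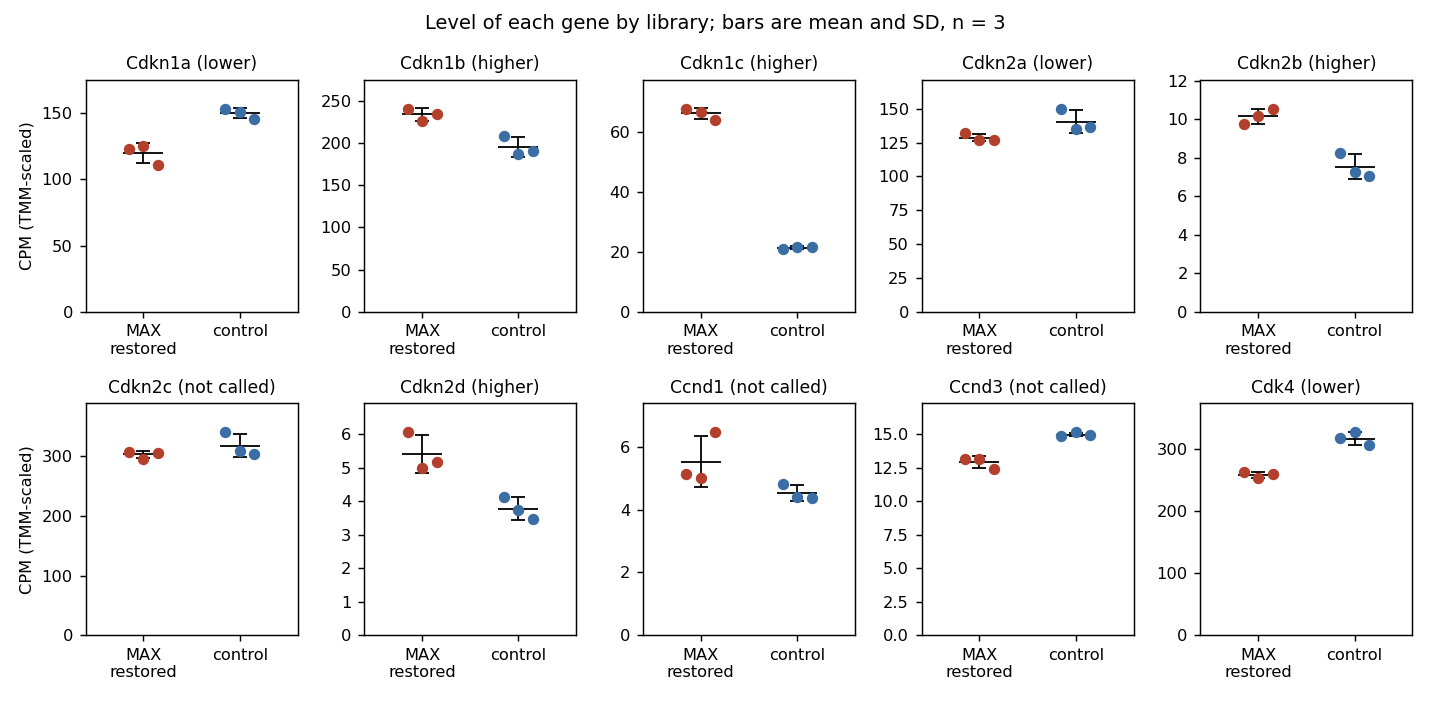
Level of each of the 10 genes in CPM (vertical axis, TMM-scaled, starting at 0) in the 3 MAX restored and the 3 control libraries, 1 point per library, with the mean and SD as bars. Cdkn1c, at 64.2 to 67.9 CPM with MAX restored and 20.9 to 21.8 CPM in the controls, is the 1 gene whose groups are far apart, and only Cdkn2c overlaps.

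Cdkn1c, which encodes p57 and is expressed from the maternal chromosome as an imprinted gene, showed the largest change among the 10. Its level was 67.9, 66.8 and 64.2 CPM in MAX restored libraries 1, 2 and 3, against 20.9, 21.6 and 21.8 CPM in controls 1, 2 and 3. The groups were widely separated and each was tight. The rise was 3.10-fold (log2 1.63, SE 0.06, edgeR adjusted p = 1.61e-14), and 96.6% of tested genes had a smaller absolute log2 fold change. In mm9 it occupies bases 150644244 to 150646955 of chromosome 7, minus strand.

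Its neighbours in the same imprinted region moved unequally. Slc22a18, the next gene on one side and an imprinted transporter gene, rose 1.79-fold, to 7.88 ± 1.37 CPM with MAX restored, against 4.37 ± 0.293 CPM in the controls (SD, n = 3 each). On that side Phlda2, also imprinted, was close to absent, at 0.0577 ± 0.0501 CPM with MAX restored and 0.0968 ± 0.0959 CPM in the controls, and was not tested. On the other side Kcnq1, the potassium channel gene that hosts the region's imprinting control element, fell slightly (log2 -0.15, SE 0.06), while 4933417O13Rik, not tested, had 0 counts with MAX restored, which allows up to 0.0900 CPM, against 2, 3 and 0 counts in controls 1, 2 and 3. Among 10414 genes compared (mean log2 CPM 3 or more), the profiles of Adcy1 and Rab3a were the nearest to that of Cdkn1c across the 6 libraries, with root mean square differences in centred log2 CPM of 0.0315 and 0.0352.

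Cdkn1b, which encodes p27 and was the most abundant CIP/KIP transcript, rose modestly. It stood at 241, 226 and 235 CPM in MAX restored libraries 1, 2 and 3, against 208, 187 and 191 CPM in controls 1, 2 and 3. All MAX restored libraries lay above all controls, with control 1 the nearest. The change was 1.20-fold (log2 0.26, SE 0.05, edgeR adjusted p = 7.37e-05). On chromosome 6 of mm9 the gene spans 134870419 to 134875543 on the plus strand, and the nearest genes on each side that were called, Gpr19 and 1190002F15Rik, were lower (log2 -0.19 and -0.27).

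Cdkn1a, which encodes p21 and is the best known target of p53, fell with MAX restored. The values were 123, 125 and 111 CPM in MAX restored libraries 1, 2 and 3, against 153, 151 and 146 CPM in controls 1, 2 and 3. MAX restored library 3 was the lowest of all, and the groups did not overlap. The fall was 1.25-fold (log2 -0.32, SE 0.05, edgeR adjusted p = 2.07e-05). In mm9 it occupies bases 29227931 to 29237667 of chromosome 17, plus strand. In its centred log2 CPM the nearest genes were Naa10, Aldh1b1 and Tmed3, at root mean square differences of 0.0250, 0.0256 and 0.0261.

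The start regions of these genes are shown because p53, which the line lacks per its labels, and MYC-MAX act through known sequences. RefSeq sequences on GRCm38.p6, another build than the mm9 of the counts, were found for 8 of the 10 genes (12 start sites), and the 250 bases before each start were searched on both strands. The p53 consensus, as 2 adjoining half-sites with at most 1 mismatch, was found before 1 of the 12 starts, the upstream start of Cdkn1a, and in 0.0761% of 32851 such windows genome-wide. It begins 51 bases before that start and is in capitals in the first sequence (chr17:29090888-29090978, plus strand). The second sequence is the stretch before the downstream start of Cdkn1a (chr17:29093649-29093768, plus strand), with GC boxes (GGGCGG) in capitals. The third is the window of Cdkn1b (chr6:134920151-134920400, plus strand), which rose, marked likewise. GC boxes stood in 8 of the 12 windows and in 32.7% of all windows.
Cdkn1a, upstream start: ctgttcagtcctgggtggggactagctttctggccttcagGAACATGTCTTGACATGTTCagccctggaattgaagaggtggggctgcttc
Cdkn1a, downstream start: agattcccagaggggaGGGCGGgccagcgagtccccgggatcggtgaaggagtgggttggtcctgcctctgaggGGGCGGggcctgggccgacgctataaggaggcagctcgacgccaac
Cdkn1b: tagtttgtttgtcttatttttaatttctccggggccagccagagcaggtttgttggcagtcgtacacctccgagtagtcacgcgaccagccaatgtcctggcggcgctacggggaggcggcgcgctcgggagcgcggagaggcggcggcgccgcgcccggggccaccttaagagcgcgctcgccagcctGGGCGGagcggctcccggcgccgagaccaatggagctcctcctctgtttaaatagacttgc

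Other targets of p53 were called in both directions. Of 13 tested from a list of 15, 6 were higher and 7 lower, so all 13 were called, against 63.5% of all genes (31.2% higher, 32.3% lower). The difference from that share was not tested. The count depends on the fit: 10 to 12 of the list were called in the fits without 1 library. With DESeq2 it was 9, and over all genes 6867 against 8040 in the main fit. Plk2 passed only narrowly (edgeR adjusted p = 0.0497), with overlapping groups. Sesn2, a stress-induced inhibitor of mTORC1, fell 1.65-fold and Gadd45a, a growth arrest gene, fell 1.49-fold, while Phlda3, an AKT inhibitor, rose 1.53-fold. Mdm2, the p53 ubiquitin ligase, rose to 123 ± 8.26 CPM with MAX restored, against 98.0 ± 1.58 CPM in the controls (SD, n = 3 each; log2 0.33, SE 0.05).

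Cdkn2a makes 2 proteins, p16INK4a and p19ARF, from different first exons that share the next exon in different reading frames. The annotation counted holds both first exons, at bases 88927890 to 88928096 (p16INK4a) and 88940238 to 88940523 (p19ARF) of chromosome 4 in mm9, minus strand, and the counts are summed over the gene. The 2 transcripts can therefore not be told apart. The summed level was 132, 127 and 127 CPM in MAX restored libraries 1, 2 and 3, against 150.0, 135 and 137 CPM in controls 1, 2 and 3. Control 1 was the highest of the 6, and the other controls were close to MAX restored library 1. The fall of 1.09-fold (log2 -0.13, SE 0.05) passed the threshold narrowly (edgeR adjusted p = 0.0361). Without control 1 it was log2 -0.08 (edgeR adjusted p = 0.0897), and it also missed the threshold without MAX restored library 1, 2 or 3 (edgeR adjusted p = 0.0642, 0.129 and 0.129).

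Cdkn2b, the neighbouring gene for p15, went the other way at a low level. Its level was 9.75, 10.2 and 10.6 CPM in MAX restored libraries 1, 2 and 3, from 116, 114 and 108 counts, against 8.27, 7.29 and 7.03 CPM in controls 1, 2 and 3, from 84, 76 and 71 counts. Every MAX restored library was above every control. The rise was 1.35-fold (log2 0.43, SE 0.12, edgeR adjusted p = 0.00469). It lies 11.7 kb from Cdkn2a, at bases 88952198 to 88956941 of chromosome 4, minus strand. Mtap, the methylthioadenosine phosphorylase gene on the far side of Cdkn2a, fell (log2 -0.32, SE 0.12). Dmrta1, on the far side of Cdkn2b, was at 1.22 ± 0.321 CPM with MAX restored and 4.76 ± 0.229 CPM in the controls (SD, n = 3 each; log2 -1.94).

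Cdkn2c, which encodes p18 and was the most abundant of the 7 inhibitor transcripts, did not pass the test. It measured 307, 296 and 306 CPM in MAX restored libraries 1, 2 and 3, against 339, 309 and 304 CPM in controls 1, 2 and 3. The groups overlapped, with control 1 above the rest. Its log2 fold change was -0.07 (95% interval -0.16 to 0.02, edgeR adjusted p = 0.176). That interval includes the -0.13 of Cdkn2a. Without control 1 the log2 fold change of Cdkn2c was -0.02 (edgeR adjusted p = 0.62). The gene lies at bases 109333481 to 109339361 of chromosome 4, minus strand.

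Cdkn2d, which encodes p19INK4d, had few counts. They were 72, 56 and 53 in MAX restored libraries 1, 2 and 3 (6.05, 4.99 and 5.18 CPM), against 42, 39 and 35 in controls 1, 2 and 3 (4.14, 3.74 and 3.47 CPM). The groups did not overlap, with MAX restored library 1 the highest. The rise was 1.43-fold (log2 0.52, SE 0.17, edgeR adjusted p = 0.0103), and without MAX restored library 1 the value was 0.43 (edgeR adjusted p = 0.0587). The annotation places the gene at 2 loci of chromosome 9 in mm9, at bases 21092908 to 21095653, minus strand, and 123836860 to 123839607, plus strand, each with an exon of 401 and one of 869 bases. Reads that match both copies may be missing from these counts, so the level is uncertain, and the exon length used for it covers both copies.

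The log2 fold changes of the 5 inhibitors other than Cdkn1c and Cdkn1a lay between -0.13 and 0.52, the 2 largest of them in Cdkn2b and Cdkn2d, the inhibitors with the fewest counts. The plot of fold changes sets all 10 side by side.

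**Figure D2:**
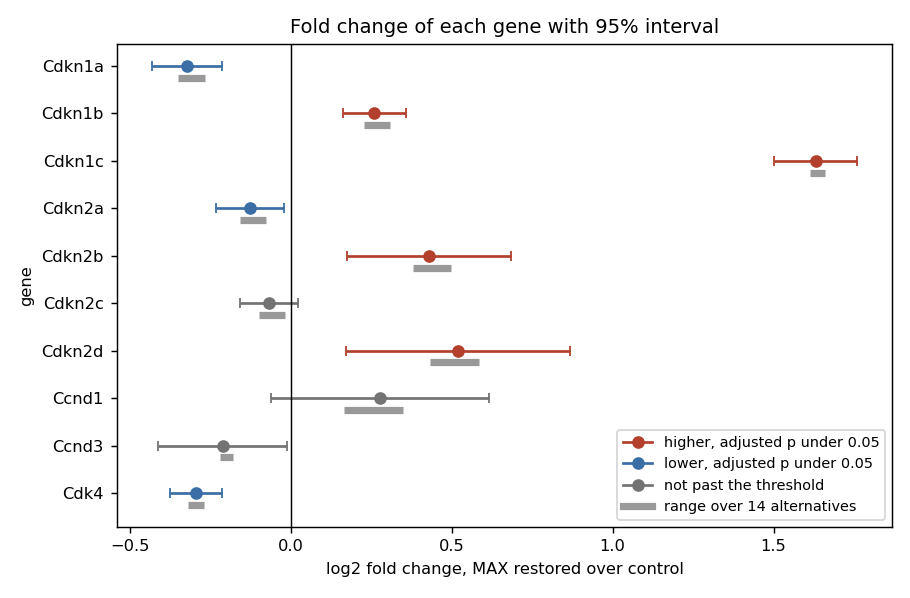
Log2 fold change (horizontal axis, MAX restored over control) of each of the 10 genes, with the 95% interval of the edgeR fit; grey bars below give the range over 14 alternative analyses. Cdkn1c, at 1.63, stands apart from the other 9 genes, which lie between -0.32 and 0.52, and the widest intervals are those of the low-count genes Cdkn2d and Ccnd1.

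D cyclin transcripts were scarce in both groups. Ccnd1, the cyclin D1 gene, had 61, 56 and 66 counts in MAX restored libraries 1, 2 and 3 (5.13, 4.99 and 6.45 CPM), against 49, 46 and 44 in controls 1, 2 and 3 (4.83, 4.41 and 4.36 CPM). The groups did not overlap, with MAX restored library 3 the highest. The log2 fold change was 0.28 (95% interval -0.06 to 0.62, edgeR adjusted p = 0.143), an interval that includes the 0.52 of Cdkn2d. In mm9 it occupies bases 152115836 to 152125830 of chromosome 7, minus strand.

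Ccnd3, the cyclin D3 gene, was the more abundant of the pair. Its level was 13.2, 13.2 and 12.4 CPM in MAX restored libraries 1, 2 and 3, against 14.87, 15.15 and 14.96 CPM in controls 1, 2 and 3. Each MAX restored value lay below each control value, yet the gene did not pass the threshold (log2 -0.21, 95% interval -0.41 to -0.01, edgeR adjusted p = 0.0629). Some of its exon sequence in mm9 (chromosome 17, bases 47642000 to 47736637, plus strand) is shared with Bysl, a ribosome biogenesis gene, and reads in the shared part could not be assigned. Bysl itself fell (log2 -0.48, SE 0.06). Ccnd2, the cyclin D2 gene, had 0 counts in the 3 MAX restored libraries, which allows up to 0.0900 CPM over that group, and 2 counts in control 1 with 0 in controls 2 and 3. Cdk6 had 0 counts in all 6 libraries, which allows up to 0.0900 CPM with MAX restored and 0.0978 CPM in the controls, counting error only. Of the D cyclins and their kinases, Ccnd1, Ccnd3 and Cdk4 were thus the 3 detected above that limit.

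Cdk4, the kinase gene, was abundant and lower with MAX restored. It stood at 262, 253 and 260.3 CPM in MAX restored libraries 1, 2 and 3, against 317, 327 and 307 CPM in controls 1, 2 and 3. The groups were clearly separated. The fall was 1.23-fold (log2 -0.29, SE 0.04, edgeR adjusted p = 1.74e-06), and 54.6% of tested genes had a smaller absolute log2 fold change. In mm9 it occupies bases 126500659 to 126504338 of chromosome 10, plus strand. Tspan31, a tetraspanin gene, spans bases 126504346 to 126507317, right beside the end of Cdk4, and also fell (log2 -0.22, SE 0.05). Since strand was not used in counting, reads that run past either end cannot be told apart.

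The start of Cdk4 is shown because it holds 4 E-boxes (CACGTG), the sequence that MYC-MAX binds, in capitals, beginning 172, 118, 98 and 11 bases before the start (chr10:127063285-127063534 of GRCm38.p6, plus strand). None of the other 11 windows of these genes held 1. At least 1 CACGTG stood in 6.02% of the 32851 windows and at least 4 in 0.0213%, that is in 7 windows.
Cdk4: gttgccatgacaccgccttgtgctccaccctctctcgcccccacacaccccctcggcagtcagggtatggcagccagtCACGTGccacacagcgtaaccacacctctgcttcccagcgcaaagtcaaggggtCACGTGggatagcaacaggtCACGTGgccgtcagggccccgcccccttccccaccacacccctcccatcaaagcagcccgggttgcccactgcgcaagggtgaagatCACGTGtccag

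Genes with this sequence did not share 1 direction. Of 973 tested genes with at least 1 CACGTG in a start window, 25.7% were higher and 39.6% lower, and their median was -0.06 (log2). Of 8698 tested genes whose windows held none, 31.2% were higher and 31.9% lower, with a median of -0.0012. Besides Cdk4, the tested genes with at least 4 were Mfsd1 and Lamp1, both of lysosomal membrane proteins, and both were higher (log2 0.20, SE 0.05, and 0.10, SE 0.03). A match is a description of the letters and does not show binding.

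Levels of different genes were compared per length, as CPM per kilobase of annotated exon. In both groups the order from the top was Cdk4, Cdkn2c, Cdkn2a, Cdkn1b, Cdkn1a and Cdkn1c, and at the bottom Cdkn2d and Ccnd1. Cdk4 stood at 192 ± 3.66 per kilobase with MAX restored and 236 ± 7.42 in the controls (SD, n = 3 each), and Ccnd1 at 1.45 ± 0.212 and 1.19 ± 0.0675. Cdkn2b and Ccnd3 changed places. Cdkn2b was at 7.29 ± 0.289 and Ccnd3 at 5.72 ± 0.201 per kilobase with MAX restored, against 5.41 ± 0.470 and 6.63 ± 0.0626 in the controls. Within each group no neighbours in the order had overlapping ranges over the 3 libraries. The place of Cdkn2d is uncertain for the reason given with its loci. That of Ccnd3, with its exchange with Cdkn2b, is uncertain too, since reads shared with Bysl were not assigned while the whole exon length was used.

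**Figure D3:**
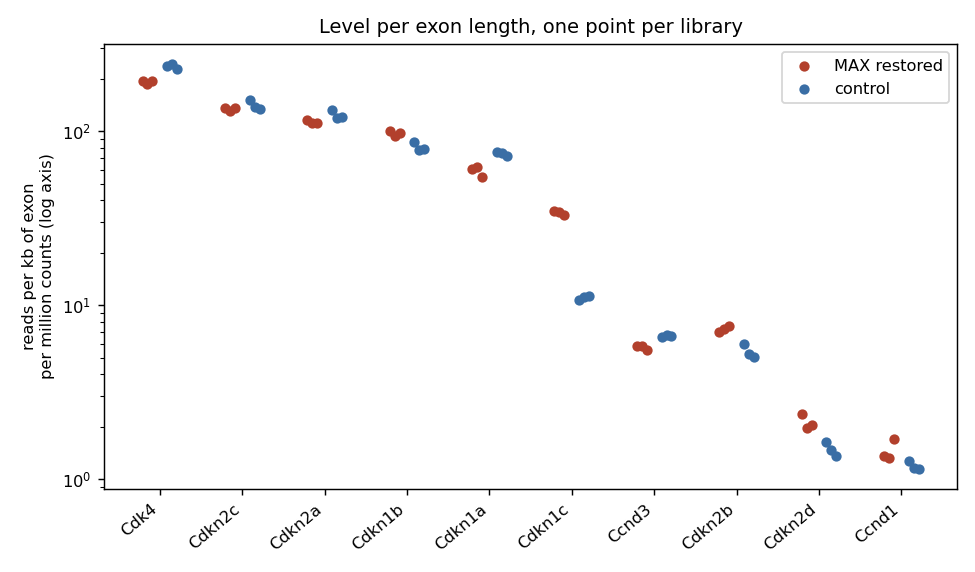
Level per exon length (vertical log axis, CPM per kilobase of exon) of the 10 genes, ordered by their control mean, 1 point per library. Cdk4 and the inhibitors Cdkn2c, Cdkn2a, Cdkn1b and Cdkn1a sit well above the D cyclins Ccnd3 and Ccnd1 in both groups, and Cdkn1c is the gene whose groups are farthest apart.

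The makeup of the CIP/KIP pool changed. Summed per length, Cdkn1a, Cdkn1b and Cdkn1c gave 196, 190.3 and 186 per kilobase in MAX restored libraries 1, 2 and 3, against 173, 163 and 163 in controls 1, 2 and 3. The MAX restored libraries were all higher. Cdkn1c made up 17.9% ± 0.146 of this sum with MAX restored and 6.64% ± 0.372 in the controls, Cdkn1a 31.0% ± 1.504 and 44.6% ± 1.01, and Cdkn1b 51.0% ± 1.64 and 48.8% ± 1.27 (SD, n = 3 each). The INK4 sum was 257 ± 4.66 per kilobase with MAX restored and 271 ± 16.3 in the controls, with overlapping ranges of 252 to 262 and 262 to 290.2. Cdkn2c and Cdkn2a held nearly all of it, at 52.3% ± 0.422 and 44.1% ± 0.485 with MAX restored, and 51.9% ± 0.320 and 45.6% ± 0.377 in the controls.

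The ratio of inhibitor transcripts to Cdk4 was higher with MAX restored, mostly through the lower Cdk4 level. Summed per length, the 7 inhibitors gave 448 ± 8.65 per kilobase with MAX restored and 438 ± 22.2 in the controls (SD, n = 3 each), with overlapping ranges. That sum was 2.35, 2.36 and 2.29 times the Cdk4 level in MAX restored libraries 1, 2 and 3, against 1.97, 1.75 and 1.86 times in controls 1, 2 and 3. The ratios did not overlap. Cdk4 in turn was 26.8 ± 0.446 times the sum of Ccnd1 and Ccnd3 with MAX restored and 30.1 ± 0.762 times in the controls (SD, n = 3 each). The limit on Ccnd3 holds for this ratio as well. These are ratios of transcripts and not of proteins, and since the genes were chosen with earlier results known, no test was run on the sums.

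**Figure D4:**
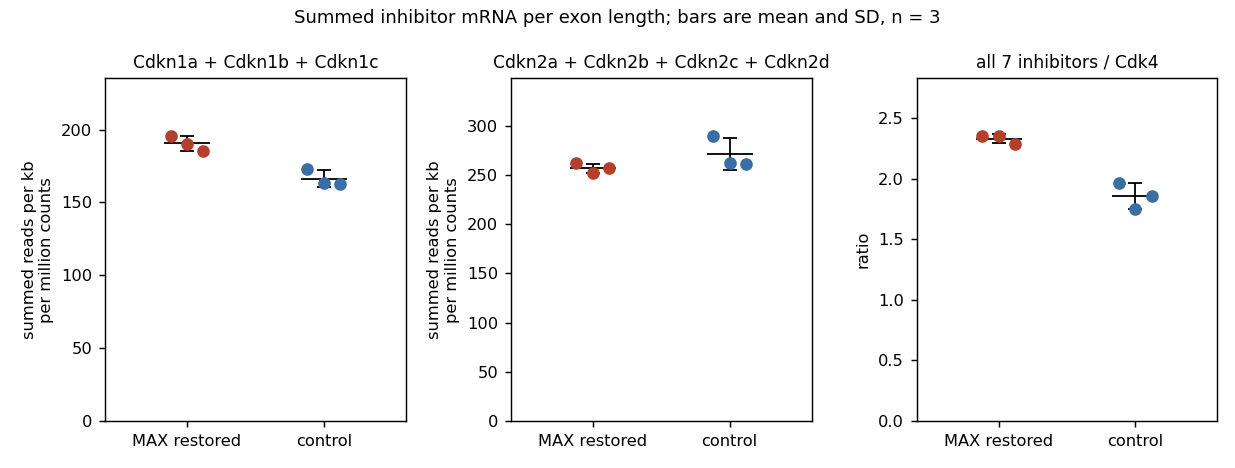
Summed level per exon length of the CIP/KIP genes (left) and the INK4 genes (middle), and the ratio of all 7 inhibitors to Cdk4 (right), 1 point per library with mean and SD; vertical axes start at 0. The CIP/KIP sum and the ratio are higher in all 3 MAX restored libraries, while the INK4 ranges, 252 to 262 with MAX restored and 262 to 290.2 in the controls, are close together.

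The partners of these proteins were called in both directions. From a list of 15 cyclins, kinases, activators and pocket proteins, 12 were tested, and 2 were higher, 7 lower and 3 not past the threshold. That is 75% of those tested, against 63.5% of all genes (31.2% higher, 32.3% lower), and the difference was not tested. Their median log2 fold change was -0.21, against -0.0036 over all genes. The pocket protein genes split. Rbl1, which encodes p107, fell (log2 -0.58, SE 0.05), to 70.8 ± 2.67 CPM with MAX restored, against 106 ± 4.72 CPM in the controls (SD, n = 3 each). Rbl2, which encodes p130, the pocket protein of resting cells, rose 1.33-fold (log2 0.42, SE 0.06). Rb1, which the line lacks per its genotype, is among the 7 called lower (log2 -0.15, SE 0.04). Its counts, summed over all exons, do not check that deletion. Mnat1, a subunit of the CDK-activating kinase, fell 1.49-fold, and its cyclin Ccnh fell too (log2 -0.26, SE 0.07), while the kinase gene Cdk7 did not pass (0.10, SE 0.06). Of the later cyclins, Ccna2 (log2 -0.49, SE 0.05) and Ccne1 (-0.33, SE 0.05) fell, and Ccne2 did not pass (-0.03, SE 0.05). Cdc25a, the phosphatase that activates CDK2, fell as well (log2 -0.30, SE 0.06). Cdc37, the co-chaperone that loads CDK4 onto HSP90, was the second to rise (0.19, SE 0.04). Cdk2, the main target of the CIP/KIP proteins, did not pass (log2 -0.09, SE 0.05). Ccna1, Ccnd2 and Cdk6 had too few counts to be tested.

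Of genes that set the turnover of these proteins, all 18 listed were tested, and 5 were higher and 5 lower. The 55.6% called lies below the 63.5% of all genes, so the count says nothing particular about the list. The median of the list was -0.04 on the log2 scale. Without control 2, MAX restored library 1 or MAX restored library 2 the lower count was 3. Cks1b, the cofactor with which SKP2 marks p27 for destruction, fell 1.71-fold, to 26.04 ± 1.30 CPM with MAX restored, against 44.5 ± 3.94 CPM in the controls (SD, n = 3 each). Skp2 itself did not pass the threshold (log2 -0.07, SE 0.07). Dtl, the adaptor of the CUL4 ligase that destroys p21, fell (log2 -0.43, SE 0.05), while the ligase parts Cul4b (0.47, SE 0.06) and Ddb1 (0.26, SE 0.03) rose. Ambra1, the adaptor for cyclin D destruction, rose by 0.17 (SE 0.05) on the log2 scale.

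Of 23 known regulators of these genes tested from a list of 25, 6 were higher and 10 lower, 69.6% of them called against 63.5% of all genes, and the median over the 23 was -0.06 (log2). Zbtb17, which encodes MIZ1, the factor through which MYC is known to repress Cdkn1a and Cdkn2b, rose 1.29-fold, to 68.3 ± 2.31 CPM with MAX restored, against 52.7 ± 2.504 CPM in the controls (SD, n = 3 each). Tfap4, a MYC target gene whose protein represses Cdkn1a, fell 1.71-fold. Klf4, an activator of Cdkn1a, fell 2.07-fold, from few counts, to 7.41 ± 1.37 CPM with MAX restored, against 15.4 ± 1.44 CPM in the controls (SD, n = 3 each). Klf6, another activator of Cdkn1a, rose 1.57-fold. Ets2, an activator of the p16 promoter, fell (log2 -0.59, SE 0.03), while its relative Ets1 rose (0.49, SE 0.06). Foxo4, an activator of Cdkn1b, fell 1.44-fold, while its relative Foxo1 rose (log2 0.19, SE 0.06) and Foxo3 did not pass (-0.02, SE 0.07). Cbx8, a polycomb subunit that silences the Cdkn2a locus, rose 1.63-fold, while its relative Cbx7 fell (log2 -0.33, SE 0.05). No link between any of these and a change in its target was tested.

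**Figure D5:**
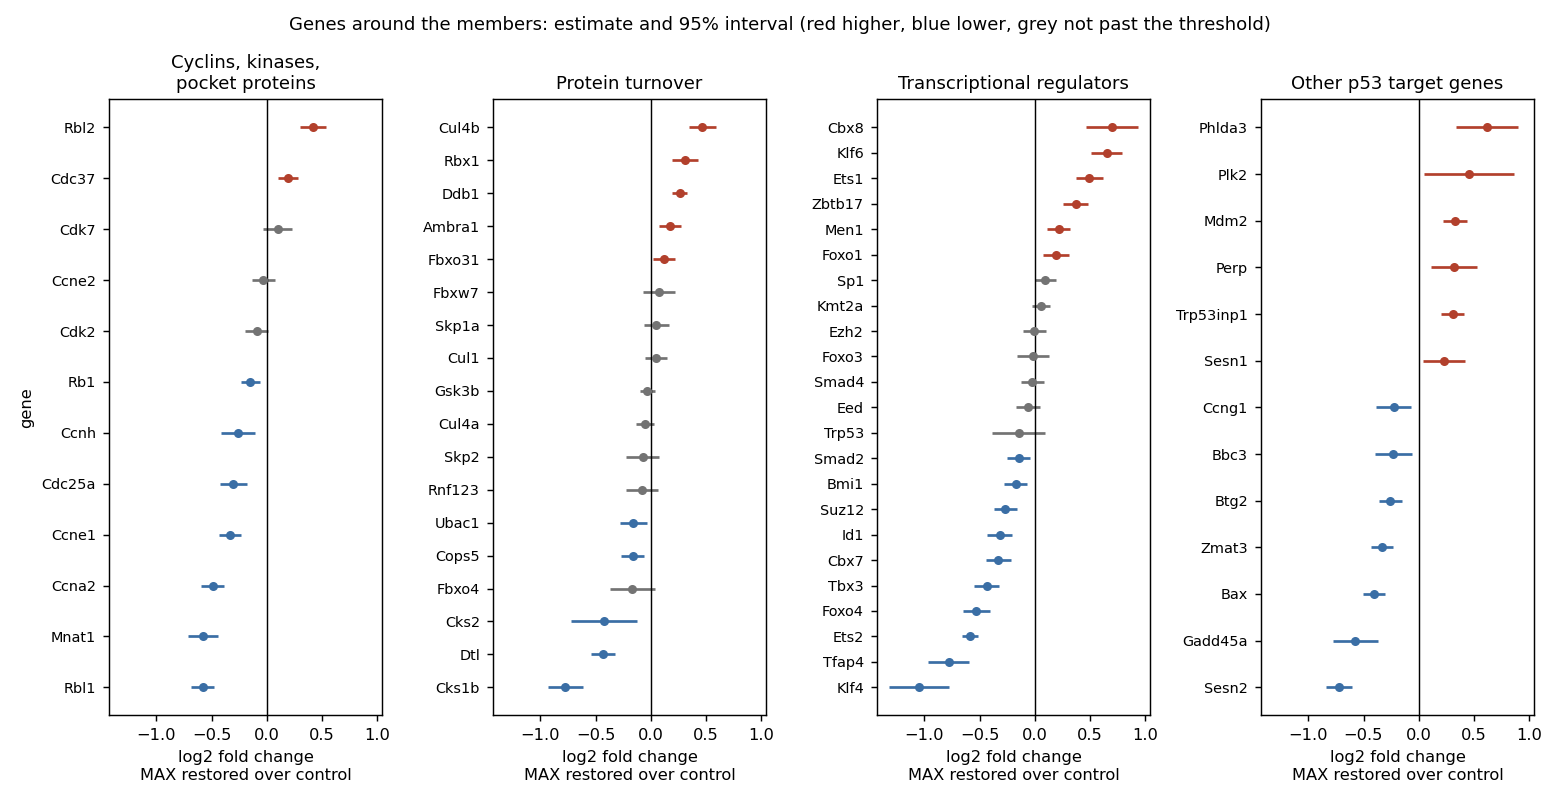
Log2 fold change (horizontal axis, MAX restored over control) with its 95% interval for the tested genes of 4 lists around the 10: cyclins, kinases and pocket proteins, protein turnover, transcriptional regulators, and other p53 targets. Each list holds genes on both sides of 0, from Klf4 at -1.05 to Cbx8 at 0.70.

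Of 28 neighbours, the nearest pair on each side of each called gene, 19 were tested, and 4 were higher and 8 lower. The share called in either direction was close to the 63.5% over all genes tested (31.2% higher, 32.3% lower). Lower calls were more frequent than higher ones among the neighbours, and that difference was not tested. Next to Cdkn2d, at the locus on the minus strand, Kri1 (log2 -0.32, SE 0.07) and Ap1m2 (-0.29, SE 0.05) fell, where Cdkn2d rose. Next to its copy on the plus strand, Fyco1 rose (0.38, SE 0.06). Beside Cdkn1a, Srsf3, a splicing factor gene, rose slightly (log2 0.15, SE 0.06), and Trp53cor1, the gene of the p53-induced lincRNA-p21, was at 1.39 ± 0.390 CPM with MAX restored and 0.981 ± 0.624 CPM in the controls and did not pass. On the far side of Tspan31 from Cdk4, LOC100504703 was higher (log2 0.59, SE 0.25), from few counts. The other neighbours tested, Cpne5, 2810454H06Rik, Apold1, Atg4d, Slc44a2 and March9, did not pass, and Rab44, Gm12603, Zfp352, Xcr1, Ccr1, Ccr1l1 and Cyp27b1 had too few counts to be tested.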

How the data were processed

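RNA of 6 libraries, 3 of the MAX restored and 3 of the control group, was sequenced from 500 ng of total RNA each, per the labels. STAR 2.5.2a, Subread 1.6.0 (featureCounts), bcl2fastq 1.8.4 and mm9 are listed in the submitters' processing notes. Each deposited file gives unnormalized counts by gene symbol; per the file headers featureCounts ignored strand, used UCSC mm9 genes, and had no option switched on for multi-mapping or multi-gene reads. The exon lengths come from the same files.

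Genes were kept by filterByExpr (minimum count 10; 12664 of 24391), scaled by TMM and tested with edgeR 4.0.16 (quasi-likelihood, group only, two-sided, Benjamini-Hochberg over all genes tested, threshold 0.05) in R 4.3.3. Each standard error divides the absolute log2 fold change by the root of F, and 95% intervals use its total degrees of freedom. CPM and levels per kilobase use TMM-scaled library sizes. A count of 0 is given with the limit of 3 counts over the group. Alternatives used other scalings and filters, DESeq2 1.42.0, limma 3.58.1 voom, the replicate number as a block, and leaving out each library. The scripts were tested on simulated data.

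The members and lists were chosen with earlier results of these data known. From each list the called genes with an absolute log2 fold change of at least 0.5 were named, with the neighbours of called members and the 3 nearest profiles; other list genes, and genes rich in CACGTG, were named after their values were seen. Some genes that this rule would name are not reported here.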

Additional observations from a re-analysis of the deposited data

How the results depend on the processing

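Each of the 10 member fold changes kept its sign in all 14 alternatives run on it. Calls on Cdkn1a, Cdkn1b, Cdkn1c, Cdkn2b and Cdk4 held in all 14, and Cdkn2c, Ccnd1 and Ccnd3 passed in none. Cdkn2a missed the threshold with upper quartile scaling (log2 -0.10, edgeR adjusted p = 0.0884), with DESeq2 (-0.13, adjusted p = 0.0572) and in 4 of the 6 fits without 1 library (range -0.16 to -0.078). The call on Cdkn2d was lost with DESeq2 (0.51, adjusted p = 0.0916) and without MAX restored library 1, with a range of 0.43 to 0.59 over the 6 fits without 1 library. The number of turnover genes called lower was 3 with DESeq2 and 3 to 6 over the fits without 1 library. The causes were not tested. The replicate number as a block gave 8034 genes called, 7 of them members, and changed no call on a member. Same-numbered libraries did not deviate together (correlations 0.0035, 0.0355 and -0.0241). With deviations taken from means of 3 libraries, this cannot settle whether the numbers pair the samples. Upper quartile scaling moved the median of all genes to 0.022. Depth limits Cdkn2d, Ccnd1 and Cdkn2b, which rest on 35 to 116 counts a library.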
